A study of Mus musculus with 3 samples.

Results

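The cells described here are the Ttr-rich cells of a hippocampal sort, 65 of the 19791 cells that passed the cell filters in 3 sequencing runs. They were chosen by transthyretin (Ttr), which had to supply at least 1% of a cell's UMIs (unique molecular identifiers, the tags by which captured RNA molecules are counted). The cell filters asked for 1000 UMIs and 500 genes or more, with no more than 10% of UMIs from mitochondrial genes. Because Ttr chose the cells, its own level is given as a description, with no test, and it was removed from all sums before genes were compared. All animals had the genotype Cx3cr1CreERT2/+; Rosa26tdTomato/+; NestinTK-eGFP/+. Cre recombinase is therefore driven from the locus of Cx3cr1, a receptor of microglia and related macrophages, and tamoxifen at 100 mg/kg on 4 days switches on the red reporter in cells that carry active Cre. Both hippocampi were taken, and the tdTomato-positive cells of 12 mice (6 male, 6 female) make up a single group of 3 runs. The labels do not tie animals to runs and give no age. No treatment or genotype was compared, so every comparison is between cells of the same runs. P-values measure only counting error and the spread between runs. In the main test (edgeR, runs 1 and 2) that spread was estimated over all genes together. Its p-values therefore do not show how well a single gene repeated between runs.

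Ttr is the carrier of thyroid hormone and retinol that the choroid plexus, the tissue which makes cerebrospinal fluid in the brain ventricles, secretes in large amounts. Its epithelial cells pump ions and water from blood to fluid, carry folate, hormones and metals across, and hold tight junctions that form the barrier between blood and fluid. These cells lie next to the hippocampus, along the choroidal fissure, are of neuroepithelial origin and are not myeloid.

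Promoter windows were read for the genes of the choroid epithelium list, since these genes were high together in the Ttr-rich cells. Of the 30 listed genes, 23 had windows in the RefSeq table (GRCm38.p6), 33 windows of 300 bases in all. The letters TAATCC, the core recognised by OTX homeodomain factors, were searched on both strands. They occurred in 1 of the 33 windows (3.03%) and in 2318 of all 32817 windows in the table (7.06%). The window with the match belongs to an alternative start of Otx2, a homeodomain factor of choroid plexus, at chr14:48665060-48665359, and is shown with the match in capitals, read on the minus strand, so that the TAATCC stands on the opposite strand. The window of Kcnj13, the potassium channel Kir7.1, at chr1:87394680-87394979, also read on the minus strand, is shown as one without the letters. A match is a description of these letters only, and their absence from the other windows says nothing of the factor.
Otx2: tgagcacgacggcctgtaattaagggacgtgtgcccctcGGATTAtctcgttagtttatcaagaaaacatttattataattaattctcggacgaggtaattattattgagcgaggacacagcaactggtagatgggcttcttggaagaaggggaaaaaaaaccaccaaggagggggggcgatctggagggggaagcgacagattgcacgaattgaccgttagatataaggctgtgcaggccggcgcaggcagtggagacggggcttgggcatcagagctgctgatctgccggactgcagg
Kcnj13: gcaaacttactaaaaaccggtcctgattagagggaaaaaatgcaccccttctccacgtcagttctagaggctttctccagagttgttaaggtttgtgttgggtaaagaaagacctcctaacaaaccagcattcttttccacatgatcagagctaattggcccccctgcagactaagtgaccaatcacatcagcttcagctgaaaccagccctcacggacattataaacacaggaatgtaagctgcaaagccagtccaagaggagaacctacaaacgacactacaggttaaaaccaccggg

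The runs held 34140879, 24717907 and 24225612 UMIs in runs 1, 2 and 3. Passing cells had a median of 4425, 3438 and 3696 UMIs. Between 7 and 10 cell barcodes were shared by each pair of runs, and none of them was a Ttr-rich cell.

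Ttr-rich cells were unevenly spread over the runs. Run 1 held 29 of them among 6993 cells (0.415%, exact 95% binomial interval 0.278 to 0.595%). Run 2 held 32 among 6720 (0.476%, 0.326 to 0.672%). In run 3 there were 4 among 6078 (0.0658%, 0.0179 to 0.168%). The mean share was 0.319% ± 0.221 (SD, n = 3), and run 3 fell below the others, with intervals that did not overlap. Intervals and limits from counts of 0 cover counting error only. A limit from a count of 0 is the share that a count of 3 would give, which is lower than the upper end of an exact interval.

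The Ttr-rich cells were of 2 kinds, told apart by microglial transcripts. The share of a cell's non-Ttr UMIs that came from 18 microglia markers, Cx3cr1, P2ry12 and Tmem119 among them, reached at most 0.653% in 34 cells and was at least 4.02% in the other 31. No Ttr-rich cell lay between these values, and a limit of 2% was set there after they had been seen. Of the 19726 other passing cells, 56 (0.284%) also lay under this limit, all with under 0.1% Ttr. The 34 Ttr-rich cells below the limit numbered 13, 18 and 3 in runs 1, 2 and 3, and the 31 above it 16, 14 and 1. The label of choroid plexus epithelium-like cells therefore goes with 34 of the 65 cells, and the rest are called here Ttr-rich cells with a microglial profile.

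**Figure D1:**
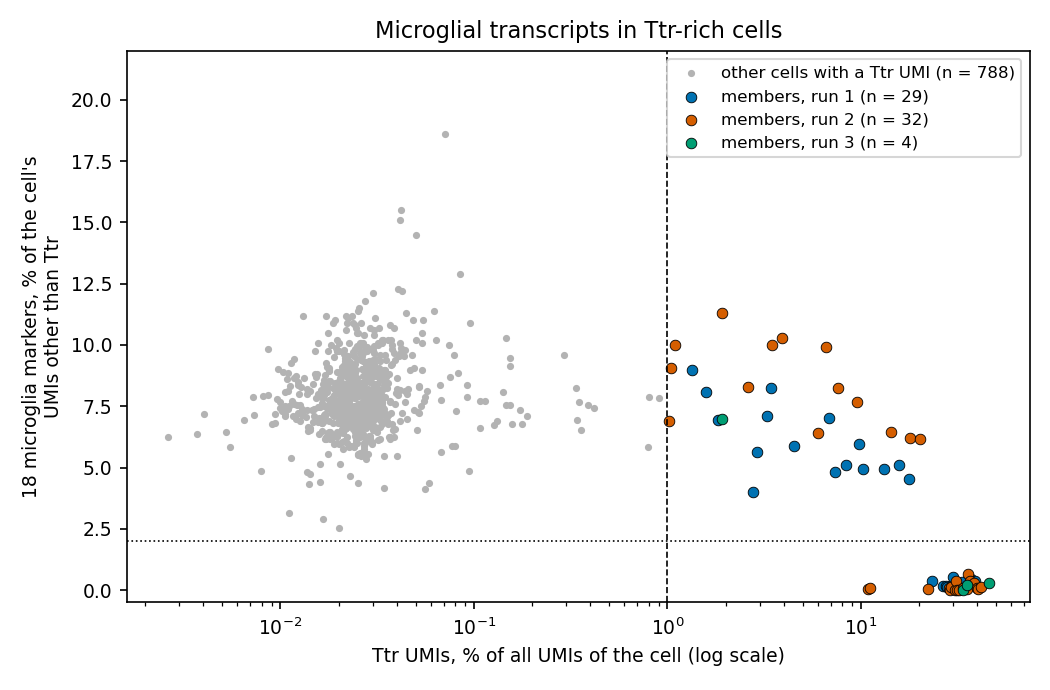
Each point is a cell, placed by the percentage of its UMIs from Ttr (x axis, log scale) and the percentage of its other UMIs from 18 microglia markers (y axis). Coloured points are the 65 Ttr-rich cells by run and grey points the 788 other cells with a Ttr UMI, the dashed line marks 1% Ttr and the dotted line 2% microglia markers. The Ttr-rich cells form a group at the level of the grey cells and a group near 0.

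Cells without a microglial profile held from 10.9 to 45.8% Ttr, with a median of 31.9%. They were shallow, with a median of 1684 UMIs and 702 genes, against 3840 UMIs and 1791 genes in the other cells of the series. Choroid epithelium genes other than Ttr supplied a median of 4.28% of their non-Ttr UMIs, with a lowest value of 1.47%, and the median was 0 in the other cells. Each held 6 to 26 of the 30 listed choroid genes. Their mitochondrial share had a median of 8.98% in run 1, 2.94% in run 2 and 5.87% in run 3, against 2.43% over the other cells of the series. The part of RNA quality in the results below was not tested.

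Cells with a microglial profile held from 1.02 to 20.2% Ttr, with a median of 4.52%. All 24 Ttr-rich cells under 10% Ttr were of this kind. They held a median of 5086 UMIs, of which 281 came from the microglia markers, against 315 in the other cells of the series. Each had 15 to 18 of the 18 markers, and the markers made up a median of 6.94% of non-Ttr UMIs, against 8.11% in the other cells. At the same time they carried 2 to 21 choroid genes, which supplied a median of 0.558% of non-Ttr UMIs. These barcodes thus held about the microglial UMIs of an ordinary cell of the sort together with choroid plexus transcripts. No doublet caller was used, and doublets were not removed.

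Across the cells with a microglial profile the Ttr share went with the share of choroid genes (Spearman's rho 0.95, n = 31 cells) and, in the opposite direction, with that of microglia genes (rho -0.53). It also went with the mitochondrial share (rho 0.54). Among the 34 cells without the profile the rho of Ttr with the choroid genes was 0.70. These are descriptions across cells of shared libraries, and the shares of a cell share its depth.

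At the edge of the rule, the 4 cells just inside had 1.02, 1.05, 1.10 and 1.34% Ttr, and the 4 just outside had 0.904, 0.803, 0.798 and 0.420%. All 8 were rich in microglia markers, with shares between 5.85 and 9.98%. Few cells lay near the limit. From 0.5 to 1% Ttr there were 3 passing cells, and from 1 to 2% there were 8.

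**Figure D2:**
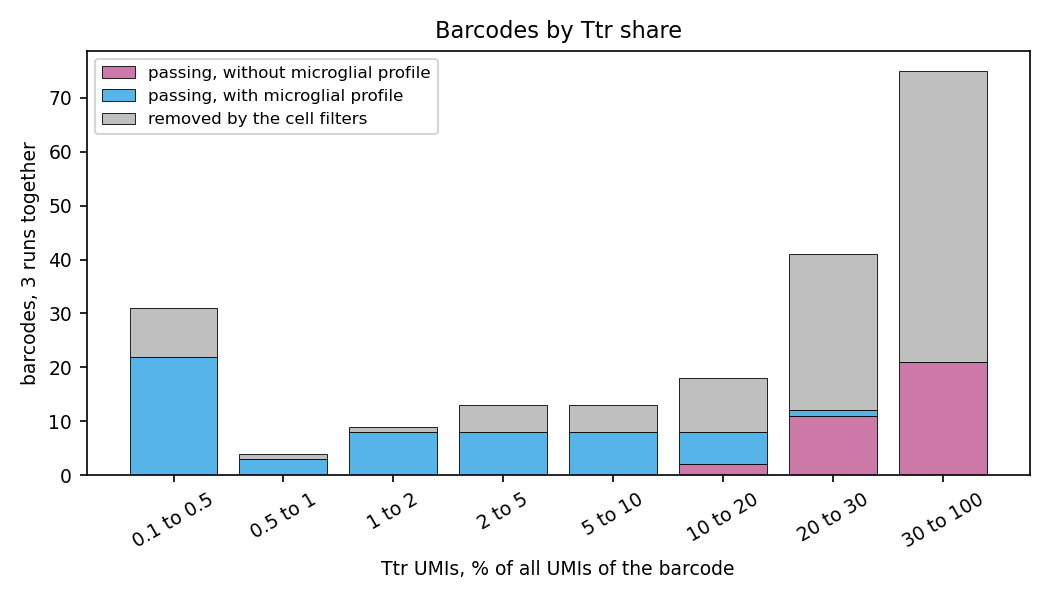
Bars give the number of cell barcodes, over the 3 runs, in bins of the percentage of UMIs from Ttr, divided into passing cells without a microglial profile, passing cells with it, and barcodes removed by the cell filters. All 21 passing cells from 30% Ttr upwards lack the profile, and removed barcodes outnumber passing ones there (54 against 21).

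Ttr was also found at low level outside these cells. A Ttr UMI occurred in 6.22, 2.35 and 3.26% of the other cells in runs 1, 2 and 3, 788 cells in all (3.99%), at a mean of 0.0626 UMIs per cell over the 3 runs. Ttr UMIs numbered 136 for each Folr1 or Sostdc1 UMI in cells without the profile, 135 in those with it and 137 in the other cells. For each Enpp2 UMI there were 23.8, 19.2 and 20.9 Ttr UMIs. These ratios are pooled over the runs and rest on few UMIs, with 9 of Folr1 and Sostdc1 in all other cells. In runs 1, 2 and 3 the ratio to Folr1 and Sostdc1 was 115, 141 and 213 in cells without the profile and 121, 175 and 38.5 in those with it. In other cells it was 108 and 135 in runs 1 and 2, and run 3 had no UMI of either gene. Set against the whole choroid list the populations differed. Ttr made up 92.2 and 91.3% of the UMIs of Ttr and the list together in cells without and with the profile, and 34.8% in the other cells, where the share by run was 42.8, 31.3 and 22.8%.

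Folr1, the folate receptor that carries folate into cerebrospinal fluid (chr7:101858331-101870788, GRCm38, protein coding), is among the markers of the label. In cells without a microglial profile its summed level was 2254, 2058 and 1471 CPM (counts per 1000000 UMIs, Ttr left out) in runs 1, 2 and 3. In those with the profile it was 390.4 and 243 CPM in runs 1 and 2. The other cells had 0.0897, 0.0409 and 0 CPM, from 4 UMIs in all 3 runs. A Folr1 UMI was present in 31 of 34 cells without the profile, in 19 of 31 with it, and in 0.0203% of the other cells.

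Sostdc1, a secreted antagonist of BMP and Wnt signals (chr12:36314139-36318452), behaved alike. Its level was 1720, 1513 and 1471 CPM in cells without the profile and 284 and 191 CPM in runs 1 and 2 in those with it. Other cells had 0.12, 0.0409 and 0 CPM. Folr1 or Sostdc1 was detected in 54 of the 65 Ttr-rich cells, 32 of the 34 without and 22 of the 31 with the profile. For both genes the levels of the 3 populations did not overlap in runs 1 and 2.

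Depth was then set equal. Cells were thinned to 1000 non-Ttr UMIs each, which left out 12 shallow cells without the profile. Folr1 was found in 19 of 22 cells without it (86.4%, exact interval 65.1 to 97.1%). It was found in 8 of 31 with it (25.8%, 11.9 to 44.6%) and in 0 of 19726 other cells, which allows a share of up to 0.0152%. Sostdc1 was found in 68.2, 19.4 and 0.00507% of these populations, and Enpp2 in 100, 83.9 and 0.0710%. Without thinning the Folr1 shares were 31 of 34 and 19 of 31 cells, as given above.

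Counts summed per run were then compared between Ttr-rich and other cells in runs 1 and 2, the runs with at least 20 Ttr-rich cells. Run 3, with 4, was left out of this test. Of 11549 genes tested with edgeR's quasi-likelihood test, 577 were higher (5.0%) and 290 lower (2.51%) in Ttr-rich cells at an adjusted p under 0.05, 7.51% in both directions together. DESeq2 called 468 higher (4.05%) and 49 lower (0.424%). The lower calls varied with the setting, with 35 when run 3 was added (0.308%) and 65 without the run as a block. In the same edgeR test they were 0 without run 1 or without run 2, where 168 and 89 genes were lower at an unadjusted p under 0.05. Each of these fits took in run 3 with its 4 Ttr-rich cells beside the remaining run. With 2 runs there was 1 residual degree of freedom, and genes shared a single estimate of spread.

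Choroid epithelium genes were higher in these cells as a group. Of the 30 listed genes 22 passed the filter on low counts and all 22 were higher, but 20 of them passed only through the Ttr-rich sums, since the other cells alone lay under the filter's 0.816 CPM in at least 1 run, so the count is a description. With no filter, 29 of the 30 had a UMI in runs 1 and 2 and 27 were higher, against 3.35% of all 18315 genes. The median log2 difference of these 29 was 11.42, against -1.0 over all genes. Lmx1a, a roof plate factor that is needed in choroid plexus formation, had no UMI in any population. The lists and the Ttr-rich cells had been chosen with earlier results of these data known. The same limit holds for the lists that follow. Several lists by function also share genes with the choroid epithelium list, so their counts are not independent of its count. For lists by function with genes that passed only in this way, their number is given, with the count when no filter was set. The counts are read against 5.0% higher and 2.51% lower of all tested genes, and 3.35% higher with no filter.

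Secreted products were among the most abundant of these transcripts. Enpp2 encodes autotaxin, the secreted enzyme that makes lysophosphatidic acid (chr15:54838901-54952892). It reached 14531, 24003 and 22660.4 CPM in cells without a microglial profile, 3951 and 4401 CPM in runs 1 and 2 in those with it, and 0.987, 0.696 and 0.374 CPM in the other cells. All 65 Ttr-rich cells held an Enpp2 UMI, against 0.243% of the others. Its log2 difference was 13.09 ± 0.35 (SE, 2 runs, edgeR adjusted p = 1.21e-292). Unless a fit of a kind or another setting is named, log2 differences compare all Ttr-rich cells of runs 1 and 2 with other cells. They therefore differ from the ratio of the CPM where those are of cells without the profile. Cells with the profile gave 84526 of the 101386 non-Ttr UMIs of the Ttr-rich sum in run 1 and 57714 of 90751 in run 2. A gene that was not called in these sums may still differ in the cells without the profile.

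Igfbp2, a binding protein of insulin-like growth factors, stood at 4448, 3541 and 4120.1 CPM in cells without the profile, at 592 and 450.5 CPM in runs 1 and 2 in those with it, and at most at 0.389 CPM in others. 1500015O10Rik, which encodes the peptide precursor augurin, stood at 4329.8, 3814 and 5003 CPM, at 816 and 537 CPM, and at most at 0.287 CPM in the same order. Ptgds, the prostaglandin D synthase of cerebrospinal fluid, had 2966, 3239 and 6474 CPM in cells without the profile and at most 3.12 CPM in other cells (log2 difference 9.65 ± 0.27 SE, edgeR adjusted p = 1.11e-254). Clu, the chaperone clusterin, had 2313, 3148 and 3531 CPM against at most 5.29 CPM (7.72 ± 0.25 SE, adjusted p = 4.21e-196 in the edgeR test).

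In the list of secreted proteins, 12 of 17 genes tested were higher and none was lower, against 5.0 and 2.51% of all genes, and 8 of the 12 passed the filter only through the Ttr-rich sums. With no filter 12 of 22 were higher, with a median log2 difference of 7.65. Cst3, the protease inhibitor cystatin C, is also an abundant microglial transcript and did not pass (log2 difference -0.69 ± 0.29 SE, edgeR adjusted p = 0.155). It stood at 4923, 2785 and 5003 CPM in cells without the profile and between 52194 and 62937 CPM in other cells. Apoe, a lipid carrier made by glia and macrophages, had 5991, 5842 and 4709 CPM in cells without the profile, against 1389, 1321 and 1376 CPM in the others. In cells with the profile it differed between the runs, with 6566 CPM in run 1 and 1265 in run 2.

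A single barcode of run 1 carried 384 of the 628 Apoe UMIs of these cells. It held 8898 UMIs, 2.76% Ttr, 11 choroid genes and 8 of 11 markers of border-associated macrophages, the macrophages of meninges, vessels and choroid plexus. Besides Apoe it carried 140 Lyz2, 14 Ms4a7, 5 Mrc1 and 5 Pf4 UMIs, with 0 of P2ry12 and 1 of Tmem119. The 30 other cells with a microglial profile held no UMI of Ms4a7, Mrc1 or Pf4 and 244 of Apoe, a level of 1774 CPM. The lysozyme gene Lyz2 was called higher in Ttr-rich cells (log2 difference 1.15 ± 0.23 SE, edgeR adjusted p = 2.05e-05). Without this barcode it was not called (-0.48 ± 0.27 SE, adjusted p = 0.378 in the edgeR test), and the 34 cells without the profile had no Lyz2 UMI. Ms4a7, the only border macrophage marker called higher (1.96 ± 0.64 SE, edgeR adjusted p = 0.0329), had no UMI outside this barcode. The call of Apoe remained without it (log2 difference 1.01 ± 0.21 SE, edgeR adjusted p = 3.74e-05) and was lost with run 3 added (edgeR adjusted p = 0.571).

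Ion and water transport genes formed the next group. Of 22 listed genes 18 were tested, and 14 were higher and none lower, against 5.0 and 2.51% of all genes. Of the 14, 9 passed the filter only through the Ttr-rich sums. With no filter 16 of 22 were higher, and the median log2 difference was 8.10. Fxyd1, the sodium pump regulator phospholemman, stood at 1957, 2422 and 3826 CPM in cells without the profile, at 449.6 and 450.5 CPM in those with it in runs 1 and 2, and at most at 0.688 CPM in others. Atp1b1, the beta subunit of the sodium pump, had 534, 817 and 2060 CPM against at most 1.56 CPM in others (log2 difference 7.95 ± 0.55 SE, edgeR adjusted p = 1.35e-44).

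Kcnj13, the potassium channel whose promoter is shown above, had 1246, 1302 and 589 CPM in cells without the profile, 284 and 139 CPM in runs 1 and 2 in those with it, and 1.62, 0.328 and 2.08 CPM in other cells. The difference was 8.96 ± 0.49 on the log2 scale (SE, edgeR adjusted p = 1.46e-71). Carbonic anhydrases supply the bicarbonate for secretion. Car2 stood at 652, 848 and 0 CPM, Car12 at 356, 212 and 589 CPM and Car14 at 297, 182 and 1766 CPM in cells without the profile, and none exceeded 1.26 CPM in the others. The value of Car14 in run 3 rests on 6 UMIs.

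Stk39, a kinase that activates chloride cotransporters, was higher (log2 difference 8.58 ± 0.76 SE, edgeR adjusted p = 2.35e-27). The cotransporter gene Slc12a2 did not pass (0.68 ± 0.33 SE, edgeR adjusted p = 0.264). Its level was 168, 143 and 136 CPM in Ttr-rich cells of both kinds together and 102, 81.2 and 110 CPM in others. The anion exchanger Slc4a2 was higher (log2 difference 2.19 ± 0.45 SE, edgeR adjusted p = 3.78e-05). Aqp1, the water channel of the apical membrane, did not reach the filter on low counts. It had 3, 6 and 1 UMIs in Ttr-rich cells of runs 1, 2 and 3 and none in 19726 other cells, which makes it at least 903-fold higher in runs 1 and 2 against a floor of 3 UMIs over both runs.

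Carriers of hormones, vitamins and metals were less uniform. Of the 22 listed carriers 15 were tested, and 6 were higher, against 5.0% of all genes. Of the 6, 4 passed the filter only through the Ttr-rich sums, Folr1, a marker of the label, among them. With no filter 10 of 21 carriers with a UMI were higher (median log2 difference 2.08). Slco1c1, a transporter of thyroid hormone, had 652, 393 and 589 CPM in cells without the profile and at most 0.15 CPM in others (log2 difference 10.99 ± 0.87 SE, edgeR adjusted p = 3.7e-34). Slc31a1, the copper importer, was higher by 1.88 ± 0.40 (SE, edgeR adjusted p = 8.89e-05). The glucose transporter Slc2a1 did not pass in the sums of both kinds together (0.19 ± 0.64 SE, edgeR adjusted p = 0.923).

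Among 13 tested genes of iron and copper handling 3 were higher, against 5.0% of all genes, and 1 of the 3 passed the filter only through the Ttr-rich sums. With no filter it was 3 of 16 (median log2 difference 0.63). They were Mt3, a metal-binding metallothionein, Steap1, a metalloreductase, and Fth1, the heavy chain of ferritin. Mt3 stood at 3321, 3935 and 5003 CPM in cells without the profile against 16.0, 13.9 and 5.82 CPM in others, a log2 difference of 6.49 ± 0.23 (SE, edgeR adjusted p = 1.01e-164). The call of Fth1 (0.62 ± 0.20 SE, edgeR adjusted p = 0.0368) did not hold with run 3 added (edgeR adjusted p = 0.867). In runs 2 and 3, without run 1, its log2 difference was -0.03. Transferrin (Trf) is an iron carrier that both choroid plexus and glia make. It had 749.6, 1025 and 272 CPM in Ttr-rich cells of both kinds together and 648, 1021 and 808 CPM in others, and the groups overlapped.

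Receptors divided unequally between the kinds of Ttr-rich cell, and the difference between kinds was not tested. Prlr, the prolactin receptor, had 415, 696 and 1471 CPM in cells without the profile, 142 and 191 CPM in those with it in runs 1 and 2, and a single UMI in the other cells of the 3 runs. Kl, the FGF co-receptor klotho (chr5:150952607-150993817), had 415, 242 and 589 CPM without the profile and 284 and 34.7 CPM with it in runs 1 and 2, and 5 UMIs in other cells, all in run 1. Its levels in the 2 kinds overlapped. Htr2c, a serotonin receptor for which choroid plexus is known, was present at 9 and 4 UMIs in Ttr-rich cells of runs 1 and 2 and at 0 in all other cells. That is at least 1305-fold higher against the floor of 3 UMIs. A Prlr UMI was present in 21 of 34 cells without and 10 of 31 with the profile, while Kl was present in 12 and 10 of them and Htr2c in 6 and 6. Of 11 receptors tested 5 were higher, namely Folr1, Kl, Prlr and the cation channels Trpm3 and Trpv4, and 1, Igf1r, was lower, against 5.0 and 2.51% of all genes. Of the 5, 4 passed the filter only through the Ttr-rich sums, and all 5 are also on the choroid epithelium list. With no filter 5 of 14 receptors with a UMI were higher and 1 lower (median log2 difference 3.63).

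Transcription factors were sparsely counted. Of 15 listed factors 4 were tested, and 2 were higher, Msx1 and Otx2, both of which passed the filter only through the Ttr-rich sums. Both are also on the choroid epithelium list. With no filter 4 of 12 factors with a UMI were higher, against 3.35% of all genes (median log2 difference 7.22). Msx1 had 237, 696 and 589 CPM in cells without the profile and 35.5 and 34.7 CPM in those with it in runs 1 and 2, and 2 UMIs in the other cells (log2 difference 11.68 ± 1.01 SE, edgeR adjusted p = 2.15e-28). Otx2 had 10, 8 and 0 UMIs in Ttr-rich cells of runs 1, 2 and 3 and 2 in the other cells (11.05 ± 1.14 SE, edgeR adjusted p = 3.34e-20). With so few UMIs in other cells the ratio for Otx2 in runs 1 and 2 was 2710, with a counting interval from 649 to 24083.

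In the group of junction and keratin genes 3 of 8 tested genes were higher, namely Krt18, Ezr and Ocln, and 1, F11r, was lower, against 5.0 and 2.51% of all genes. Of the 3 higher genes 1 passed the filter only through the Ttr-rich sums. With no filter 6 of 17 were higher and 1 lower (median log2 difference 0.69). In cells with the profile alone the fitted difference of Ocln was negative (-8.03), but it had no UMI there, so this value is no measured fall. Krt18, a keratin of simple epithelia, had 13, 29 and 6 UMIs in Ttr-rich cells (log2 difference 10.37 ± 0.83 SE, edgeR adjusted p = 6.41e-33). Cldn2, a claudin that forms pores in leaky epithelia, had 7 UMIs in Ttr-rich cells of runs 1 and 2 and none in other cells, at least 703-fold higher against the floor. Of 7 ciliary genes tested 5 were higher, namely Rsph1, Tubb4b, Cfap126, Arl3 and Mlf1, against 5.0% of all genes, and 2 of the 5 passed the filter only through the Ttr-rich sums. With no filter 9 of 15 ciliary genes with a UMI were higher (median log2 difference 5.98). Rsph1, a radial spoke protein, had 652, 242 and 294 CPM in cells without the profile and 1 UMI in all other cells. Tubb4b, a tubulin of cilia, had 2372, 2482 and 1471 CPM against 63.2, 65.2 and 54.4 CPM (3.84 ± 0.22 SE, edgeR adjusted p = 8.54e-66).

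**Figure D3:**
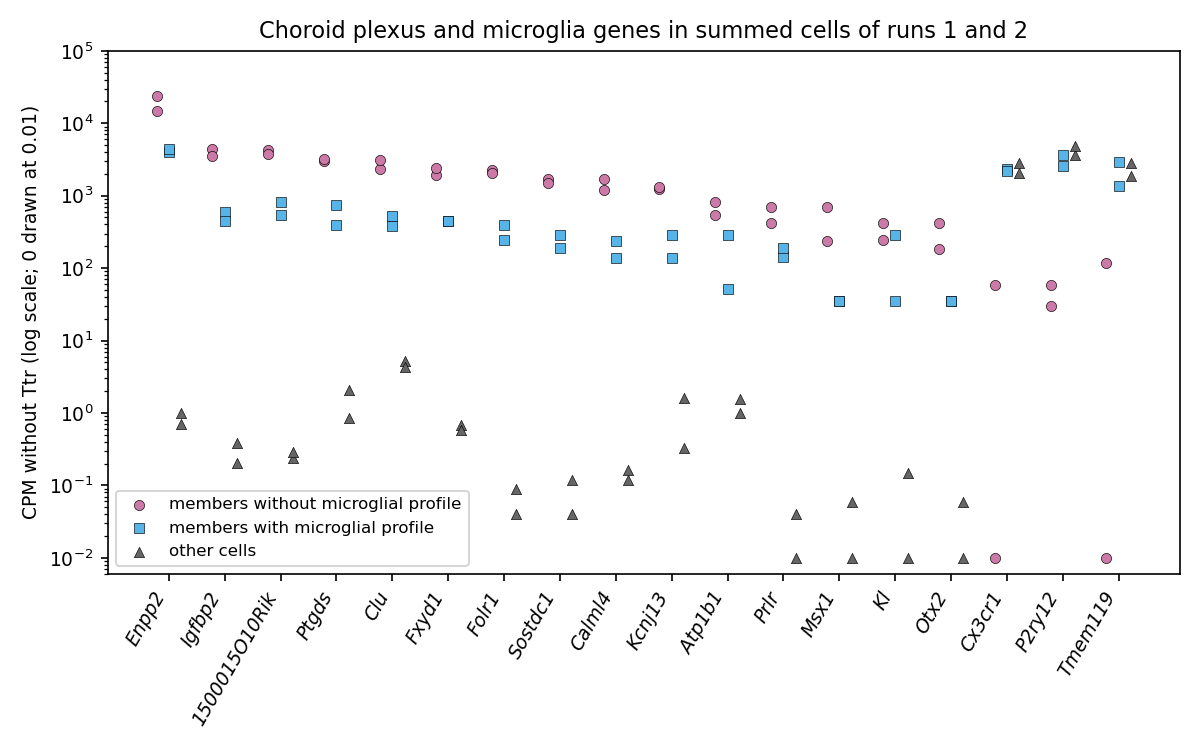
Points give CPM without Ttr (log scale, 0 drawn at 0.01) in the summed cells of runs 1 and 2, with a point for each run, in Ttr-rich cells without a microglial profile, in those with it and in other cells. For Enpp2 the cells without the profile lie at 14531 and 24003 CPM and other cells under 1, and for the 3 microglia genes at the right the cells with the profile lie beside the other cells.

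By the fixed rule, the 12 genes with the largest positive difference were Rsph1, Kcne2, Pcolce2, Defb11, Prr32, Sulf1, F5, Prlr, Folr1, Slc29a4, Elovl7 and Enpp2, with log2 differences from 14.06 down to 13.09. Most had no UMI in the other cells of runs 1 and 2, so that the fitted value is no bound. Kcne2, a regulatory subunit of potassium channels, had 11, 19 and 3 UMIs in Ttr-rich cells and was at least 3011-fold higher in runs 1 and 2 against the floor. Pcolce2, an enhancer of procollagen processing, and Defb11, a beta-defensin, were each at least 2710-fold higher by the same measure. F5, coagulation factor V, had 14, 4 and 2 UMIs and was at least 1807-fold higher. Sulf1, a sulfatase that trims heparan sulfate, was at least 2208-fold higher. Across all 577 higher genes, 11 had no UMI in the other cells of these runs.

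The largest negative differences by the same rule were for Ccl4, H2-Aa, Ccl3, Socs6, Ppm1l, Igf1r, Gak, Slc17a5, Lima1, Mtmr3, Trpm2 and Dnajb12. All 12 had no UMI in Ttr-rich cells of runs 1 and 2, and the bounds against 3 UMIs were small, from at least 2.06-fold lower for Trpm2 to at least 4.25-fold lower for Ccl4. Several came from few cells. The chemokine gene Ccl4 was detected in 3.63% of other cells and the MHC class II gene H2-Aa in 1.36%, so that few of 65 cells would hold a UMI at the same share.

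Microglia genes were lower in the Ttr-rich sums, by less than choroid genes were higher. All 18 listed genes had negative differences, with a median log2 of -0.76 against -0.33 over all genes, and 17 passed, against 2.51% of all genes. With run 3 added 0 genes of the list passed the edgeR test, 5 had an unadjusted p under 0.05, and DESeq2 called 16 in runs 1 and 2. Without the block 5 passed. P2ry12, a purinergic receptor of microglia, had 2130.5, 2358 and 2177 CPM against 3696, 4903 and 3477 CPM (log2 difference -1.01 ± 0.21 SE, edgeR adjusted p = 7.31e-05). These sums mix both kinds of Ttr-rich cell. P2ry12 stood at 59.3, 30.3 and 0 CPM in cells without the profile, from 2 UMIs, and at 2544, 3691 and 4048 CPM in those with it.

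Cx3cr1, whose locus drives the Cre, had 59.3, 0 and 0 CPM in cells without the profile, a single UMI in 34 cells. It had 2366, 2218 and 3289 CPM in cells with the profile and 2839.6, 2032 and 2596 CPM in others. Since the microglia list divided the kinds, these levels are a description. The label tdTomato-positive could not be checked for the cells without the profile, because the gene list holds no tdTomato.

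In the genes for antigen presentation, complement and cytokines, 1 of 14 tested was higher and 5 were lower, among them Cd74, H2-Aa, H2-Ab1 and Ifngr1, against 5.0 and 2.51% of all genes. The number lower was 2 with the Ttr limit at 0.5%, 8 at 5% and 3 with DESeq2 or with run 3 added. It was 0 without run 1 or without run 2, in fits that took in run 3. At 0.5% the log2 difference of H2-Ab1 was 0.49. The call of Ifngr1 did not hold with run 3 added (edgeR adjusted p = 0.267). The higher gene was Vcam1, an adhesion molecule, with 119, 303 and 589 CPM in cells without the profile against 9.57, 3.11 and 6.27 CPM in others (log2 difference 3.74 ± 0.74 SE, edgeR adjusted p = 1.74e-05). B2m, the light chain of MHC class I, was not called in the whole Ttr-rich sums (-0.59 ± 0.21 SE, edgeR adjusted p = 0.0647). In cells without the profile it had 59.3, 0 and 589 CPM, against 1227, 1002 and 1181 CPM in others.

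Separate fits for the 2 kinds were added after the data had been seen. For cells without the profile 412 of 11445 genes were higher (3.60%) and 1227 lower (10.7%). The median log2 difference over all genes was -7.18 there, since most genes had no UMI in these shallow sums, and the lower calls are not read further. For cells with the profile 124 of 11418 were higher (1.09%) and 25 lower (0.219%), with a median of -0.31. In this second fit 11 of 14 tested choroid genes were higher, and 2 of 18 microglia genes, P2ry12 and Gpr34, were lower. How many of these 14 choroid genes passed the filter only through the Ttr-rich sums was not counted, so that count is a description. The microglia list divided the kinds, so its count here is a description too. Both fits use the same other cells.

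A deep barcode carried much of run 2. It held 14849 UMIs, 40.4% of them Ttr, and gave 26.8% of the non-Ttr UMIs of the cells without the profile in that run. Without it their levels in run 2 were 1695 CPM for Folr1, 1158 for Sostdc1, 22661 for Enpp2 and 3432 for Igfbp2.

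Most markers of border macrophages, lymphocytes and neutrophils, fibroblasts and mural cells, neurons and oligodendrocytes were at 0 in the 34 cells without the profile. The endothelial, ependymal and astrocyte lists summed to more than in other cells, as given below. All 11 border macrophage and all 14 lymphocyte and neutrophil markers had no UMI. For endothelial cells 9 of 12 markers, Cldn5, Flt1, Pecam1 and Cdh5 among them, were at 0, and for fibroblasts and mural cells 10 of 12, with Dcn, Col1a1 and Pdgfrb at 0. For neurons 12 of 13 and for oligodendrocytes 10 of 12 were at 0. The endothelial list still summed to 6939.5, 8021 and 8240.1 CPM in these cells in runs 1, 2 and 3, against 626, 792 and 610 CPM in other cells. Most of this came from Bsg, with 6821, 7961 and 7652 CPM. Bsg, the endothelial marker that was called higher, is a surface protein that choroid epithelium also makes.

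Ependymal cells line the ventricles and share ciliary genes with choroid epithelium. Of the 14 ependymal markers 4 had no UMI in cells without the profile, namely Tmem212, Ccdc153, Tppp3 and Fam183b. The rest of the list, with Foxj1, Rsph1, Dynlrb2, Hdc and Mia among them, was detected in these cells. In the fit of all Ttr-rich cells 3 of the list were tested and all 3 were higher, against 5.0% of all genes. Of these 3, 1 passed the filter only through the Ttr-rich sums. In cells without the profile the list summed to 2432, 1725 and 3237 CPM, from 109 UMIs, against 7.75, 7.17 and 8.23 CPM in other cells. The astrocyte list summed to 2609.7, 3663 and 3531 CPM against 402, 266 and 269 CPM, with Aqp4, Gja1 and Gfap among the 6 of 14 at 0. In the fit of all Ttr-rich cells 2 of its 9 tested genes were higher, and 1 of the 2 passed the filter only through the Ttr-rich sums. Clu is on that list, and the list's sum moves with it.

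**Figure D4:**
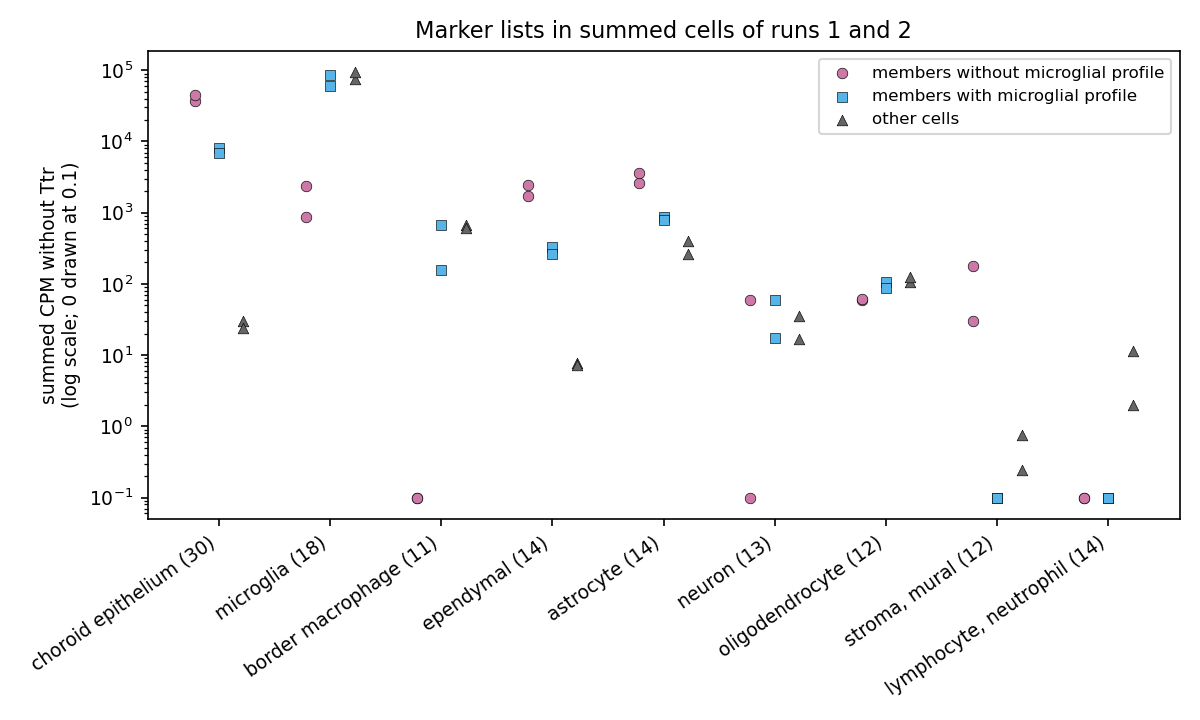
Points give the summed CPM without Ttr (log scale, 0 drawn at 0.1) of 9 marker lists in the summed cells of runs 1 and 2, with a point for each run and the number of genes in brackets. Choroid epithelium genes sum to 36418 and 44889 CPM in cells without a microglial profile, to 8009 and 6948 in those with it and to 30.2 and 24.3 in other cells. The endothelial list is not drawn.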

How the data were processed

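RNA was counted in single cells of 3 runs. The deposited tables hold raw UMI counts of 31053 genes per cell barcode. Run 1 was counted with software version 3.0.2 and runs 2 and 3 with 3.1.0, per the file headers. Cell Ranger, Seurat 4.0 and the build mm10 are named in the submitters' processing notes. How barcodes were selected before deposit is not given in the sources used here, and the lowest total was 500 UMIs. CPM were computed from these counts without Ttr.

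For each run, UMIs were added up over the Ttr-rich and over the other cells. The sums were tested with edgeR 4.0.16 (glmQLFit and glmQLFTest, TMM, filterByExpr, run as a block, Benjamini-Hochberg over all genes tested, threshold 0.05), after a test on simulated data. The SE of a log2 difference was computed back from the test, as its size divided by the square root of the test's F value. The run pairs the sums because they share a library. The deviations of paired sums had correlations of 0.05, 0.23 and 0.10 by run over 3482 genes. Alternatives used DESeq2 1.42.0, other scalings, filters, Ttr limits and runs. Named genes were, in each direction, up to 12 past the threshold, taken by size of change, with a log2 difference of 1 or more in size, 20 CPM or more where they were higher, and a shared direction in both runs. Ribosomal, mitochondrial and unnamed genes were passed over. Genes of the 20 lists could be named at any value, and a few of their results are not reported here. The cells, rule and lists were chosen with earlier results of these data known. Gene coordinates are from GENCODE M21 and count from 1.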

Additional observations from a re-analysis of the deposited data

Results flagged for a closer look

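The cell filters removed 104 of the 169 barcodes in the tables with at least 1% Ttr (61.5%). These stand out because they lie outside the cells compared and carry the signal that defines them. They numbered 45, 34 and 25 in runs 1, 2 and 3, where 29, 32 and 4 were kept. Of the 104, 71 held under 1000 UMIs, 83 held under 500 genes and 46 held over 10% mitochondrial UMIs. Their median was 856 UMIs, 8.65% mitochondrial and 30.7% Ttr. All but 2 had no microglial profile, and those 102 each held at least 3 choroid genes. Ttr-rich barcodes made up 17.8% of the 585 removed and 0.328% of those kept. Without filters the mean share of Ttr-rich barcodes was 0.814% ± 0.303 (SD, n = 3), and the shares were 1.02, 0.957 and 0.466% in runs 1, 2 and 3.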

How the results depend on the processing

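The mean share of Ttr-rich cells was 0.814% with no cell filter and 0.659% when those barcodes were limited to the ones without a microglial profile, and leaving out a run gave 0.240 to 0.445%. The number of genes called, 867, was 517 with DESeq2's Wald test, 437 with all 3 runs, 1639 for cells without and 149 for cells with a microglial profile, 2063 with no cell filter and 3916 with no cell filter and no profile. Leaving out run 1 or run 2 and taking in run 3 with its 4 cells gave 133 to 144 calls, all of them higher, with 0 lower. Genes called higher were 124 for cells with the profile, 1121 with no cell filter and 914 with no cell filter and no profile. Genes called lower, 290, were 484 at 5% Ttr, 511 at a mitochondrial limit of 20%, 127 for cells that also held Folr1 or Sostdc1, 49 with DESeq2, 35 with all 3 runs, 1227 without and 25 with the profile, 942 with no cell filter and 3002 with no cell filter and no profile. Without the replicate block for the run, 65 were lower and 5 microglia genes were lower. Choroid genes called higher, 22, were 11 for cells with the profile and 12 to 13 without run 1 or run 2. Microglia genes called lower, 17, were 3 for cells that also held Folr1 or Sostdc1, 2 for cells with the profile, 0 with all 3 runs and 0 to 0 without run 1 or run 2. The cause was not tested.

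Of 100 genes followed, not all of which could be fitted in each alternative, 7 changed sign against the log2 difference reported, with a call in at least 1 of the fits compared. Lyz2 was at -1.75 at 5% Ttr, -2.20 without run 1, -15.25 for cells without the profile, -0.48 without the barcode with macrophage transcripts and -2.21 with no cell filter and no profile. Under the same alternatives Ms4a7 was at -10.95, -10.54, -10.91, -10.93 and -1.09. Leaving out run 1 or run 2 gave -2.20 to 0.66 for Lyz2, -10.54 to 2.64 for Ms4a7 and -0.03 to 0.17 for Fth1. Ocln was at -8.03 for cells with the profile, where it had no UMI. Trf, which was not called in runs 1 and 2, was at -0.77 with no cell filter and no profile. At 0.5% Ttr H2-Ab1 was at 0.49 and Pf4, a border macrophage marker that was not called in runs 1 and 2, at 1.74. Without the barcode with macrophage transcripts 574 genes were higher and 279 lower. A stricter filter left 12, 14 and 1 cells in runs 1, 2 and 3, and no fit was run. The fits of each kind, those without cell filters and those leaving out a run were added after the data had been seen. Depth limits all levels that rest on few UMIs, since the Ttr-rich cells of runs 1 and 2 gave 101386 and 90751 non-Ttr UMIs.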

Other observations

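Nuclear genes of the mitochondrial respiratory chain supplied a larger share of UMIs in the Ttr-rich cells than in others. The list, genes whose symbols begin with Nduf, Cox4 to Cox8, Uqcr, Uqcc or Atp5, was drawn up after the values had been seen. The genes named below were also picked then, so all these values are a description with no test. Together its 92 genes supplied 10.0, 10.8 and 9.68% of the non-Ttr UMIs of cells without a microglial profile in runs 1, 2 and 3. They supplied 2.47, 2.15 and 1.54% in cells with the profile and 1.18, 1.19 and 1.10% in other cells, and the populations did not overlap. Cox8a, a subunit of cytochrome c oxidase, had 5338, 5751 and 5003 CPM without the profile and 419.8, 417 and 386 CPM in other cells. Over all Ttr-rich cells of runs 1 and 2 its log2 difference was 2.30 ± 0.20 (SE). Chchd10, a mitochondrial intermembrane protein outside the list, had 4033, 4449.6 and 3237 CPM against 2.93, 3.48 and 1.62 CPM. Its log2 difference over all Ttr-rich cells of runs 1 and 2 was 8.74 ± 0.26 (SE).

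The 13 mitochondrially encoded genes supplied 11.7, 5.47 and 9.68% of non-Ttr UMIs in cells without the profile and 2.86, 2.28 and 2.79% in other cells. They varied more between runs than the nuclear genes did, and the filter on mitochondrial UMIs bounds them.

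Xist, the transcript of the inactive X chromosome, was found in 0 of the 34 cells without the profile, which allows a share of up to 8.82% of cells with an Xist UMI. These cells had a median of 1684 UMIs. It was found in 13 of 31 cells with the profile (41.9%) and in 49.0% of other cells. Thinned to 1000 UMIs, the values were 0 of 22 cells, 35.5% and 41.4%. Y-linked UMIs occurred in 5 of the 34 cells (14.7%), all in run 2, in 41.9% of cells with the profile and in 29.7% of other cells. In run 1 they occurred in 0 of 13 cells without the profile and in 37.1% of other cells. Among the 102 removed Ttr-rich barcodes without the profile, 1 held Xist and 5 a Y-linked UMI (4.90%). Of the other removed barcodes 28.9% held Xist and 9.15% a Y-linked UMI.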
